A study of Mus musculus with 14 samples.

Results

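Cytosolic ribosomal protein genes were examined as a group on 14 microarrays of sorted mouse intestinal crypt cells. Members were all genes whose platform symbol starts with Rpl or Rps followed by a digit, the stalk genes starting Rplp, and Rpsa. Kinases of the Rps6k family and symbols containing -ps were left out. This rule uses names and no measured value, and it found 70 of the 24675 genes with a probe set on the array. Of these 70 genes, 31 encode large subunit proteins, 22 small subunit proteins and 2 proteins of the stalk. A further 6 are named paralogues of these, 8 are copies or pseudogenes, and Rps19bp1 encodes a protein that binds Rps19 and is no part of the ribosome. Rpl11, Rps6, Rplp2 and Rpl39 were not analysed here.

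The study asked what loss of Atg7, a gene needed to form autophagosomes, does to intestinal stem cells and their progeny. Atg7KO mice carried Atg7(fl/fl) and the Lgr5-EGFP-IRES-CreERT2 allele, and WT mice carried the Lgr5-EGFP-IRES-CreERT2 allele alone. Both genotypes thus carry the Cre and EGFP cassette at Lgr5, and both received tamoxifen on 5 consecutive days, 1 month before they were killed. Cre acts only where Lgr5 is or was expressed, so Atg7 deletion is limited to Lgr5-expressing cells and their descendants. Cells low for CD24 were sorted from individual mice into an EGFP high gate, labelled as stem cells, and an EGFP low gate, labelled as transit amplifying progenitors. There were 3 Atg7KO and 3 WT samples of EGFP high cells, and 4 Atg7KO and 4 WT samples of EGFP low cells. The labels do not give the age or sex of the mice.

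Cytosolic ribosomes translate the messenger RNAs of the nucleus, and each consists of a small subunit that decodes the message and a large subunit that joins amino acids. The proteins of the ribosome are made in near-equal amounts, and their messenger RNAs begin with a run of pyrimidines through which mTORC1 controls their translation. Free ribosomal proteins such as Rpl5 bind Mdm2 and stabilise p53, and autophagy degrades ribosomes in starved cells. Dividing crypt cells need a high rate of ribosome production.

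The promoters of the 4 members that passed the test in any comparison are shown here, because they are the sequences behind the called genes. Sequences are from RefSeq on mouse GRCm38.p6 and run 5′ to 3′ on the gene's strand, from 80 bases before the annotated start to 20 after it. Capitals mark CGGAAG, the core bound by ETS factors such as GABPA, and TATAAA, the TATA box core, on either strand.
Rps3, chr7:99483690-99483789, minus strand: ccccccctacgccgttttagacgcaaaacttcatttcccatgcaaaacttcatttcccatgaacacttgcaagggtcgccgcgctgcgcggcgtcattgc
Rpl22l1, chr3:28805428-28805527, plus strand: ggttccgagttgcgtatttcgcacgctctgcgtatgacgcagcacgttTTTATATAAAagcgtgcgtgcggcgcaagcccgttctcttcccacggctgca
Rpl36al, chr12:69184048-69184147, minus strand: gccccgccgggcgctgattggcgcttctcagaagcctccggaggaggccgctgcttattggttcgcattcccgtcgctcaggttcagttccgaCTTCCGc
Rpl41, chr10:128549149-128549248, minus strand: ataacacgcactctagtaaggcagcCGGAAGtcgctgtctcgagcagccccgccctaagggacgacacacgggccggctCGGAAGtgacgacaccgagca
The Rpl22l1 window holds 2 overlapping matches to TATAAA and no CGGAAG. Rpl41 holds CGGAAG 2 times, Rpl36al holds it 1 time at its last bases, and Rps3 holds neither motif.

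Promoter entries of 250 bases before to 50 bases after the start were available for 53 of the 70 members. A gene with several entries was counted once if any of them matched. CGGAAG stood on either strand for 32 of these 53 members (60.4%), against 18.7% of the 26972 other genes. CTTTCC was present on either strand for 52.8% of the members and 29.3% of the other genes. TATAAA was found for 13.2% of the members and 15.7% of the other genes. A C followed by at least 7 pyrimidines within 15 bases of the start was found in 34.0% of members and 10.7% of other genes. On the opposite strand that run was found in 5.66% of members and 11.9% of other genes.

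Values are log2 RMA values, 1 per gene and array, and levels of different genes cannot be set against each other because their probes differ. Atg7 lay between 5.91 and 6.37 on Atg7KO EGFP high arrays against 6.76 to 6.83 on WT EGFP high arrays. In EGFP low cells it lay between 5.65 and 6.06 in Atg7KO and between 6.46 and 7.49 in WT, so no Atg7KO array reached a WT array in either gate. The differences of -0.65 and -1.02 did not pass the test (limma, adjusted p = 0.208 and 0.166). All 12 Lgr5 stem cell markers were higher in EGFP high than EGFP low cells in both genotypes. The deposited values of Atg7KO-High-356 and WT-Low-411 had the narrowest spread over all genes, with an SD of 1.90 each against 1.93 to 2.06 on the other 12 arrays.

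In EGFP high cells, no ribosomal protein gene passed the test between Atg7KO and WT (limma, adjusted p under 0.05), and the class as a whole lay close to WT. The median log2 difference, Atg7KO minus WT, was 0.07 over the 64 members that passed the filter on low values. It was -0.03 over all 15873 genes tested and -0.24 over the fifth of genes with the highest mean level. Of the 64 members, 37 had a difference above 0, against 46.2% of all genes. At an unadjusted p under 0.05, 6 members were higher and 1 was lower, while 5.99% of all genes were higher and 9.88% lower. Only 0.0063% of all genes, 1 gene in each direction, were called in this comparison. RNA was taken from sorted pools, so fewer cells of a type and less RNA per cell cannot be told apart.

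The smallest p among the members belonged to Rps12l1, a RefSeq pseudogene copy of the small subunit gene Rps12. Rps12l1 read 11.65, 11.53 and 11.33 in Atg7KO EGFP high cells, against 10.67, 10.72 and 10.33 in WT EGFP high cells. Every knockout array lay above every WT array, and the difference was 0.93 (SE 0.20; limma, adjusted p = 0.131). In EGFP low cells Rps12l1 read 10.96, 11.25, 10.78 and 10.64 in Atg7KO, against 10.76, 10.68, 10.29 and 10.92 in WT, with a difference of 0.25 (SE 0.17). These groups overlapped. Its probes can share sequence with Rps12 and with other copies, so the source of the signal is uncertain.

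Among the paralogues, Rps27l, a p53 target related to Rps27, read 8.26, 8.07 and 8.03 in Atg7KO EGFP high cells, against 7.34, 7.64 and 7.10 in WT EGFP high cells. The groups did not overlap, and the difference was 0.76 (SE 0.24; limma, adjusted p = 0.184). Rps27 itself differed by -0.09 (SE 0.27) in the same comparison. Rpl22l1, the paralogue whose messenger RNA is repressed by Rpl22, read 11.54, 11.61 and 11.40 in Atg7KO EGFP high cells against 11.27, 10.53 and 10.87 in WT EGFP high cells. All 3 knockout arrays lay above the WT arrays, with a difference of 0.63 (SE 0.21; limma, adjusted p = 0.206). Rpl22 differed by 0.21 (SE 0.14). Rpl36al, a paralogue so close to Rpl36a that their probes could share signal, differed in the other direction, with 8.96, 9.05 and 9.17 in Atg7KO EGFP high cells against 9.30, 9.56 and 9.44 in WT EGFP high cells. These groups did not overlap either, and the difference was -0.38 (SE 0.14; limma, adjusted p = 0.239). Rpl7l1 and Rpl39l differed by -0.44 (SE 0.28) and 0.17 (SE 0.24). With arrays weighted by their quality, Rps12l1, Rps27l and Rpl22l1 were called higher (limma, adjusted p = 0.0197, 0.0409 and 0.0489), and in the other 24 alternatives none of the 3 was. WT-High-412 had the largest weight, 3.27, against 0.96 and 1.44 for the other WT EGFP high arrays. Its values of Rps12l1 and Rps27l, 10.33 and 7.10, were the lowest of that group, while its Rpl22l1 value, 10.87, lay between the others. Weighting raised the calls over all genes to 238 higher and 465 lower, so 4.69% of members were called higher against 1.5% of all genes, and 0 members were called lower against 2.93%.

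**Figure D1:**
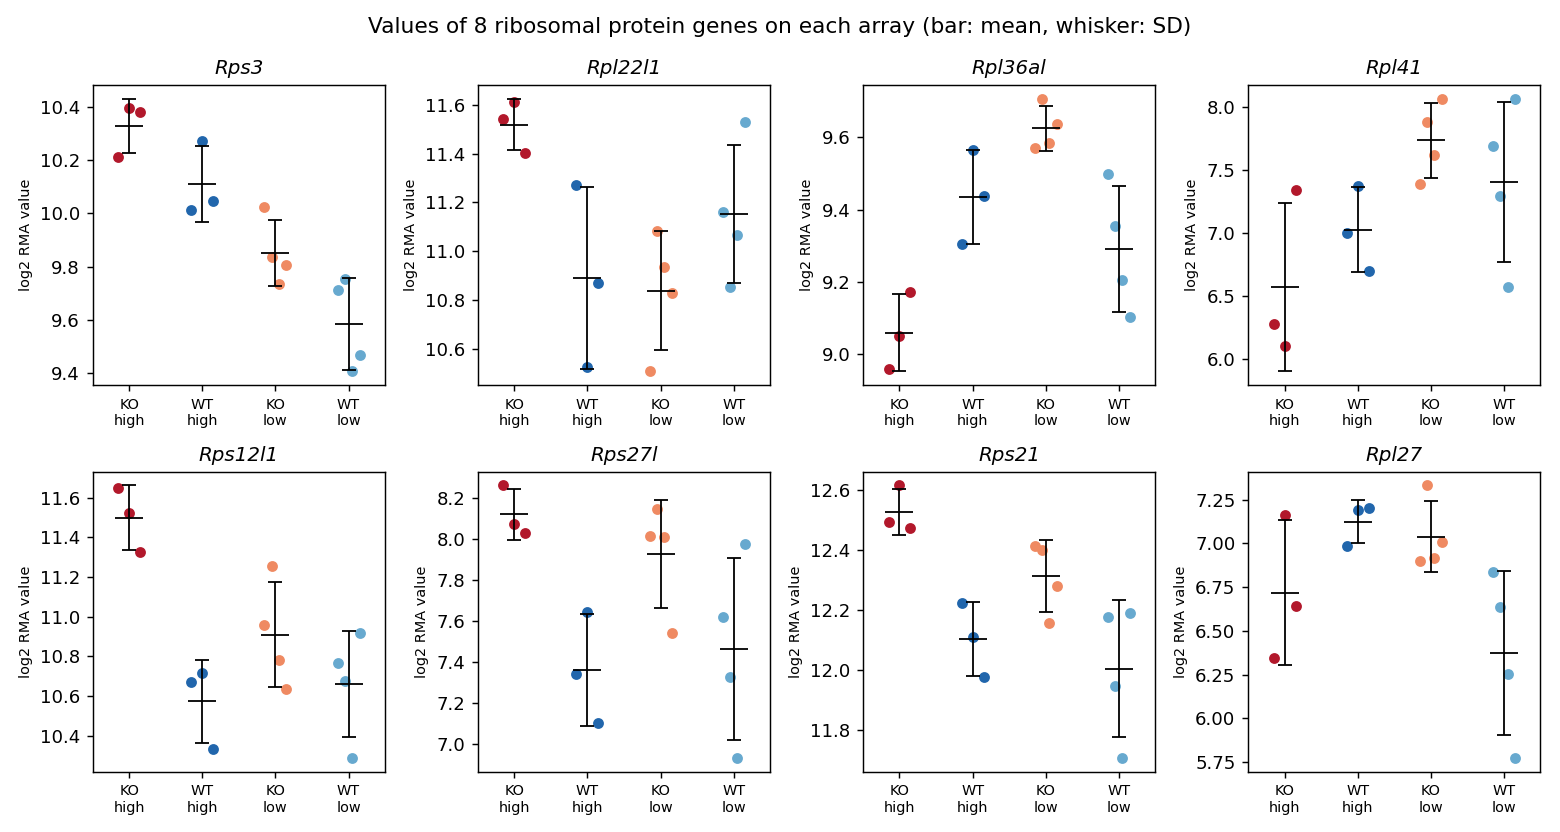
Log2 RMA values (vertical axis) of 8 ribosomal protein genes on each of the 14 arrays, in 4 groups along the horizontal axis; points are arrays, bars are group means and whiskers are SD. In Rps12l1, Rps27l and Rpl22l1 all 3 Atg7KO EGFP high arrays lie above the 3 WT EGFP high arrays, and in Rpl36al all 3 lie below.

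The subunits had small differences in EGFP high cells. The 28 large subunit genes had a median difference of -0.06, with 13 above 0, and the 22 small subunit genes had a median of 0.12, with 14 above 0. Among small subunit genes, Rps21 read 12.49, 12.62 and 12.48 in Atg7KO against 12.22, 12.11 and 11.98 in WT, a difference of 0.43 (SE 0.15; limma, adjusted p = 0.228). Rps25, whose protein is used by viral internal ribosome entry sites, averaged 8.97 ± 0.25 in Atg7KO and 8.36 ± 0.16 in WT (SD, n = 3 each), a difference of 0.61 (SE 0.23; limma, adjusted p = 0.231). In both genes the groups did not overlap. Rps3a1 differed by 0.70 (SE 0.32), with groups that overlapped. Over all 64 members the groups did not overlap in 9 that were higher and 5 that were lower, which is 14.1% and 7.81% of the members, against 10.2% and 15.2% of all genes tested.

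The stalk genes Rplp0 and Rplp1, whose proteins recruit translation factors to the large subunit, differed by 0.34 (SE 0.26) and 0.12 (SE 0.15) in EGFP high cells. Rpl5, which carries 5S ribosomal RNA and can bind Mdm2, differed by -0.43 (SE 0.27). Rps19, the gene most often mutated in Diamond-Blackfan anaemia, differed by 0.37 (SE 0.35), and Rpsa, also known as the laminin receptor, by -0.09 (SE 0.42). Of these, Rpl5 read 6.44, 5.67 and 5.86 in Atg7KO and 6.70, 6.20 and 6.37 in WT, and its groups overlapped. None of the 5 genes passed the test.

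Several measures moved with genotype in EGFP high cells beside these genes. The 8 goblet markers had mean levels of 7.87 to 9.76 on Atg7KO arrays and 9.42 to 10.01 on WT arrays, and 0 of the 8 had a difference above 0. The 6 Paneth markers had mean levels of 8.94 to 10.05 on Atg7KO arrays and 10.48 to 11.36 on WT arrays, also with 0 of 6 above 0. The 9 enterocyte markers had mean levels of 7.61 to 7.86 on Atg7KO arrays and 7.75 to 9.28 on WT arrays, with 0 of 9 above 0. None of these 23 genes was called, and none was below the filter value on every array. The SD of all values on an array was 1.94 ± 0.04 in Atg7KO and 2.04 ± 0.04 in WT (SD, n = 3 each). Their part in the ribosomal protein values was not tested.

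In EGFP low cells most members read higher in Atg7KO than in WT, but none passed the test (limma, smallest adjusted p = 0.537). The median log2 difference was 0.19 over the 64 members, 0.00 over all genes tested and 0.06 over the fifth of genes with the highest mean level. A difference above 0 was found in 50 of the 64 members (78.1%), against 50.3% of all genes. At an unadjusted p under 0.05, 14 members (21.9%) were higher and 1 (1.56%) was lower, against 3.86% and 3.40% of all genes. Called genes made up 0.0063% of all genes in the higher direction and 0.0% in the lower. Large subunit genes had a median of 0.20, with 23 of 28 above 0, and small subunit genes a median of 0.16, with 16 of 22 above 0.

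The groups did not overlap in 4 members that were higher and in 0 that were lower, against 1.71% and 1.69% of all genes. Rpl14, a large subunit gene, read 8.84, 8.62, 8.50 and 8.96 in Atg7KO EGFP low cells, against 8.06, 8.26, 7.77 and 8.39 in WT EGFP low cells. Its difference was 0.61 (SE 0.19; limma, adjusted p = 0.537). Rps15, which takes part in export of the small subunit from the nucleus, read 4.66, 4.81, 4.92 and 5.81 in Atg7KO against 4.01, 4.32, 4.41 and 4.43 in WT. Its difference was 0.75 (SE 0.24; limma, adjusted p = 0.550), and Atg7KO-Low-386 lay well above the other 3 knockout arrays. Rpl27 averaged 7.04 ± 0.20 in Atg7KO and 6.37 ± 0.47 in WT (SD, n = 4 each), a difference of 0.67 (SE 0.22; limma, adjusted p = 0.573). Rpl36al read 9.57, 9.71, 9.59 and 9.64 in Atg7KO and 9.50, 9.36, 9.20 and 9.10 in WT, a difference of 0.33 (SE 0.12; limma, adjusted p = 0.616).

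The largest difference in EGFP low cells was that of Rpl29, a large subunit gene, at 1.31 (SE 0.43; limma, adjusted p = 0.567). Rpl29 read 9.64, 8.59, 9.75 and 9.23 in Atg7KO, against 8.83, 8.85, 7.58 and 6.70 in WT. WT-Low-409 and WT-Low-411 lay far below the other 6 arrays, and the groups overlapped. Rps27 averaged 5.83 ± 0.22 in Atg7KO and 5.16 ± 0.51 in WT (SD, n = 4 each), a difference of 0.67 (SE 0.23). Rps15a, a small subunit gene, was the only member lower at an unadjusted p under 0.05, at -0.47 (SE 0.21; limma, adjusted p = 0.665). It read 7.82, 7.47, 7.34 and 6.96 in Atg7KO and 7.40, 7.82, 7.91 and 8.35 in WT, with groups that overlapped.

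**Figure D2:**
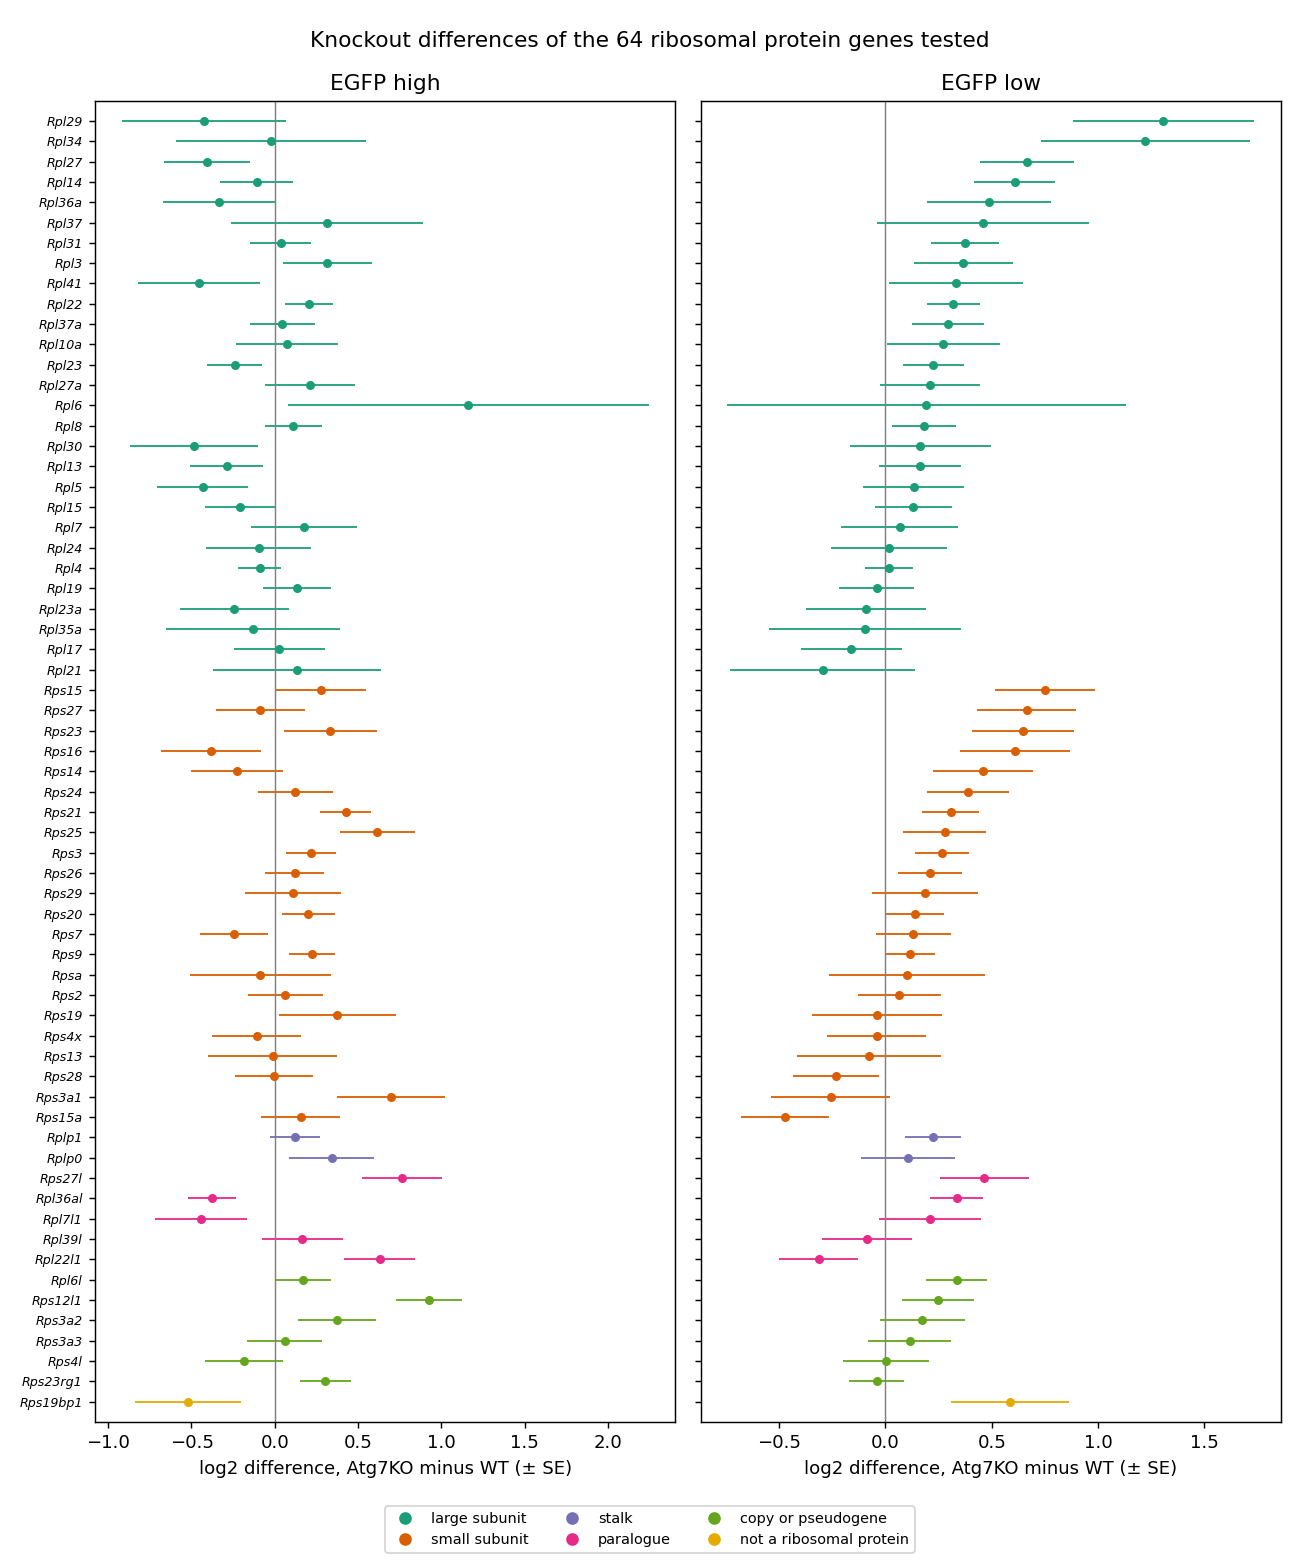
Log2 difference, Atg7KO minus WT, of each of the 64 ribosomal protein genes tested in EGFP high cells (left panel) and EGFP low cells (right panel); points are estimates, lines are ± 1 SE and colours mark the class. In EGFP low cells 50 of the 64 points lie right of 0, and in EGFP high cells 37 do.

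The members stood lowest as a group on WT EGFP low arrays. For each array, the deviation of each member from its own mean over the 14 arrays was taken, and the median of the 64 deviations formed. This median averaged 0.06 ± 0.09 in Atg7KO EGFP low cells and -0.11 ± 0.14 in WT EGFP low cells (SD, n = 4 each). WT-Low-409 had the lowest value, -0.30, with 8 of 64 members above their own mean, and WT-Low-407 had -0.13. WT-Low-341 and WT-Low-411 had -0.01 and 0.00, within the range of the Atg7KO EGFP low arrays from -0.03 to 0.18. Without WT-Low-409 the median difference of the members was 0.13. In EGFP high cells the array medians averaged 0.09 ± 0.04 in Atg7KO and 0.05 ± 0.09 in WT (SD, n = 3 each), and these groups overlapped.

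**Figure D3:**
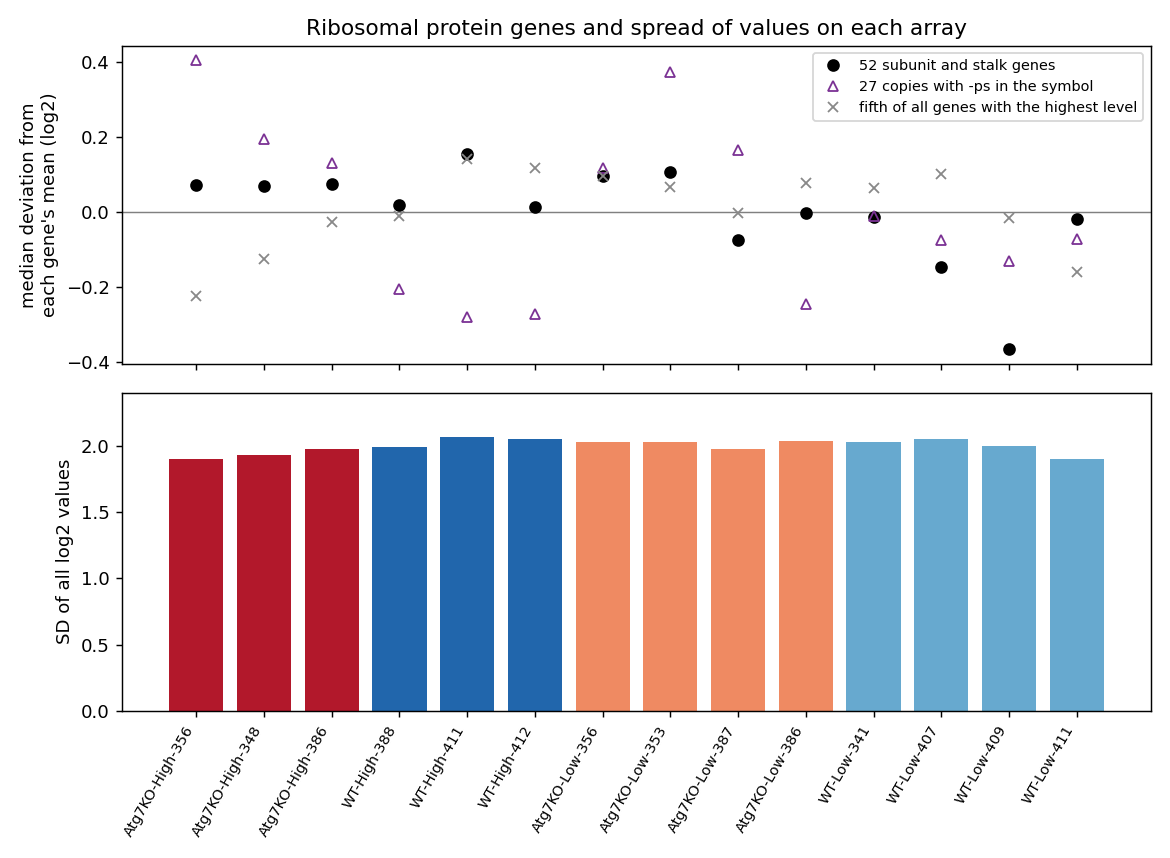
Top, median deviation from each gene's mean over 14 arrays (log2) of the 52 subunit and stalk genes tested, of 27 copies with -ps in the symbol and of the fifth of all genes with the highest level, for each array; bottom, SD of all log2 values on each array, as bars from 0. WT-Low-409 has the lowest point for the subunit and stalk genes, at -0.37, and the copies lie above 0 on the 3 Atg7KO EGFP high arrays (0.40, 0.20 and 0.13) and on 3 of the 4 Atg7KO EGFP low arrays (0.12, 0.37 and 0.17).

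The knockout difference was compared between the gates by an interaction term, and no member passed (0.0063% of all genes higher, 0.0% lower). The median of the interaction, the EGFP high difference minus the EGFP low difference, was -0.10 over the members and -0.03 over all genes. It was above 0 in 22 of 64 members (34.4%), against 47.1% of all genes. Over the 3175 genes with the highest mean level the interaction had a median of -0.30 and was above 0 in 23.0%. By both measures the interaction of the members lay between that of all genes and that of these highly expressed genes. At an unadjusted p under 0.05 it was higher in 3 members and lower in 7, against 5.53% and 8.49% of all genes. Rpl36al had the smallest p among the members. Its interaction was -0.71 (SE 0.19; limma, unadjusted p = 0.00192, adjusted p = 0.222). It was lower in Atg7KO on every EGFP high array and higher on every EGFP low array than in the WT arrays of the same gate, and such opposite differences without overlap were found in 68 of all genes tested, or 0.428%. Rpl22l1 had an interaction of 0.94 (SE 0.28; limma, adjusted p = 0.235), with a difference of -0.31 (SE 0.19) in EGFP low cells. Rpl27 and Rpl29 had interactions of -1.07 (SE 0.34) and -1.73 (SE 0.65), also not called. That of Rps12l1 was 0.68 (SE 0.26; limma, adjusted p = 0.289), again not called.

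**Figure D4:**
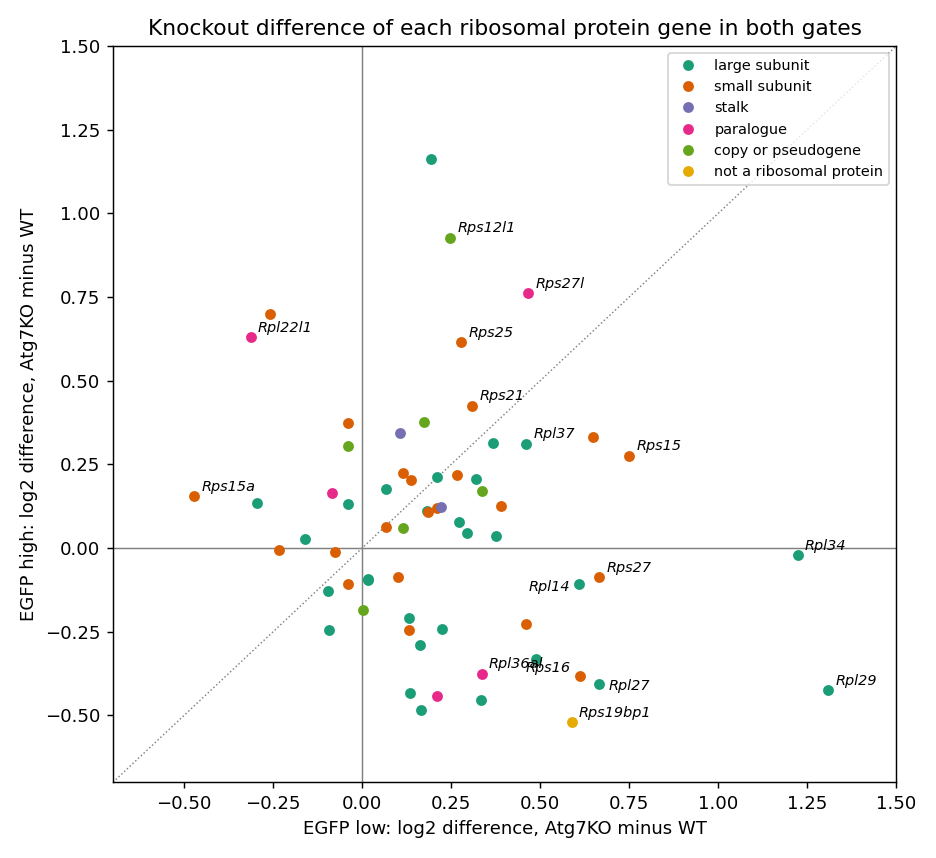
Knockout difference (log2, Atg7KO minus WT) of each of the 64 ribosomal protein genes tested in EGFP low cells (horizontal axis) against EGFP high cells (vertical axis), coloured by class; the dotted line marks equal differences. Rpl36al lies at 0.33 and -0.38, and Rpl22l1 at -0.31 and 0.63.

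Stem and progenitor gates were compared within each genotype, and in Atg7KO mice 4 members passed the test. Rps3 and Rpl22l1 rose in EGFP high cells, which is 3.13% of the members against 4.48% of all genes called higher. Rpl36al and Rpl41 fell, again 3.13% of the members, against 6.44% of all genes called lower. Both shares lay below those of all genes, but the share called higher depended on the processing. It was 10.9% of members against 4.81% of all genes with cyclic loess, 9.38% against 5.30% with repeated quantile normalization and 7.81% against 4.54% with an intensity trend. With a filter at the 60th percentile it was 8.16% against 5.55%, and with the title number as a block 6.25% against 5.21%. It lay below the share of all genes in other settings. It was 0% against 2.41% with the groups of the comparison alone, 0% against 2.77% with median centring and 3.13% against 4.32% with array weights. With the array spread as covariate it was 1.56% against 1.66%, and without a filter 2.86% against 2.89%. Without Atg7KO-High-356 and WT-Low-411 it was 1.56% against 3.02%. The median difference, EGFP high minus EGFP low, was 0.04 over the members, 0.02 over all genes and -0.19 over the fifth with the highest level. Rps12l1 rose by 0.59 in EGFP high cells of Atg7KO mice without overlap (SE 0.18; limma, adjusted p = 0.0531) and was not called. It was called in 8 of 25 alternatives, and in WT mice it differed by -0.09 between the gates. The gate comparison in Atg7KO shares its EGFP high arrays with the genotype comparison above. The values of Rps12l1, Rpl22l1 and Rpl36al are thus not independent between these comparisons.

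Rps3, a small subunit protein with a DNA repair activity, read 10.21, 10.40 and 10.38 in Atg7KO EGFP high cells, against 10.02, 9.84, 9.73 and 9.81 in Atg7KO EGFP low cells. It rose by 0.48 (SE 0.14; limma, adjusted p = 0.0398), and no array of the gates overlapped. Rpl22l1 read 11.54, 11.61 and 11.40 in the EGFP high gate against 10.51, 11.08, 10.93 and 10.83 in the EGFP low gate. It rose by 0.68 (SE 0.20; limma, adjusted p = 0.0426), also without overlap. Rpl36al fell by 0.57 in EGFP high cells (SE 0.13; limma, adjusted p = 0.0154), with the values given above and no overlap. Rpl41, a very small and basic protein of the large subunit, read 6.27, 6.10 and 7.34 in EGFP high cells against 7.38, 7.88, 7.62 and 8.07 in EGFP low cells. It fell by 1.17 (SE 0.34; limma, adjusted p = 0.0407), with Atg7KO-High-386 close to the lowest EGFP low array.

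These 4 calls depended on single arrays. Without Atg7KO-High-348 or Atg7KO-High-356 none of the 4 was called (adjusted p of 0.0536 to 0.168), while the differences kept their sign. Rps3 was also not called without Atg7KO-High-386, Atg7KO-Low-353, Atg7KO-Low-386, Atg7KO-Low-387 or WT-High-412. Rpl22l1 was also not called without Atg7KO-High-386, Atg7KO-Low-356, Atg7KO-Low-386, Atg7KO-Low-387, WT-High-412, WT-Low-341 or WT-Low-409. Rpl41 was also not called without Atg7KO-Low-353, Atg7KO-Low-386, Atg7KO-Low-387, WT-High-388, WT-High-412 or WT-Low-407. Over 25 alternatives Rpl36al was called in 21, Rps3 in 15 and Rpl22l1 and Rpl41 in 11 each. Their highest adjusted p was 0.148 for Rpl36al, 0.137 for Rps3, 0.40 for Rpl22l1 and 0.168 for Rpl41. With the 2 arrays of narrowest spread left out together, Rpl36al alone among the 4 was called.

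In WT mice 0 of the 64 members passed the test between the gates by limma, against 1.22% of all genes in each direction. The median difference, EGFP high minus EGFP low, was 0.13 over the members, 0.03 over all genes and 0.11 over the fifth of genes with the highest level. A difference above 0 was found in 43 of 64 members (67.2%), against 54.7% of all genes. Without WT-Low-409 the median was 0.05, against 0.03 over all genes, and 35 of 64 members (54.7%) had a difference above 0. At an unadjusted p under 0.05, 12 members were higher (18.8%) and 1 was lower (1.56%), against 8.88% and 5.91% of all genes. All 12 were subunit or stalk genes. This comparison and the genotype comparison in EGFP low cells share the WT EGFP low arrays, and the interaction uses them too. The values of a gene such as Rpl27 are thus not independent between these comparisons.

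Rpl22, an RNA-binding protein of the large subunit, read 6.42, 6.46 and 6.48 in WT EGFP high cells, against 6.17, 5.84, 5.89 and 5.84 in WT EGFP low cells. Its groups did not overlap, and the difference was 0.52 (SE 0.13; limma, adjusted p = 0.0574). Rps3 differed by 0.52 (SE 0.14; limma, adjusted p = 0.0604) in WT, close to its value of 0.48 in Atg7KO. Rps16, a small subunit gene, differed by 0.94 (SE 0.28; limma, adjusted p = 0.100), Rpl27 by 0.75 (SE 0.24; limma, adjusted p = 0.127) and Rplp1 by 0.47 (SE 0.14; limma, adjusted p = 0.107). None of these overlapped between the gates. Rps16 read 4.52, 4.45 and 5.20 in WT EGFP high cells and 4.06, 3.79, 3.71 and 3.56 in WT EGFP low cells. Its values on WT-Low-409 and WT-Low-411 lay below the filter values of those arrays, 3.86 and 3.98. Rps3a2, a RefSeq pseudogene copy of Rps3a1, was the member that was lower, at -0.72 (SE 0.22; limma, adjusted p = 0.109). Groups did not overlap in 11 members that were higher and 1 that was lower (17.2% and 1.56%), against 9.97% and 6.52% of all genes.

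The gates also differed in other lists. Of 12 stem cell markers, 10 were called higher in EGFP high cells of Atg7KO mice, and all 12 in those of WT mice. In Atg7KO mice 8 of 8 goblet, 6 of 8 enteroendocrine, 6 of 9 enterocyte and 4 of 6 Paneth markers were called lower in EGFP high cells. In WT mice these counts were 6 of 8, 3 of 8, 1 of 9 and 0 of 6, and the difference between genotypes in these counts was not tested. The part of these cell types in the ribosomal protein values was not tested.

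Members varied more between arrays of a group than most genes did. The median SD within groups was 0.33 over the 64 members and 0.26 over all genes, and 45 members lay above the value for all genes. The largest was that of Rpl6, a large subunit gene, at 1.59, whose values ran from 2.84 to 7.25 over the 14 arrays. Its knockout differences of 1.16 in EGFP high and 0.19 in EGFP low cells stood beside SEs near 1. Rpl37 and Rpl34 followed with 0.83 and 0.82. The steadiest members were Rpl4 and Rps9, with 0.09 and 0.11. The 6 genes Rpl10, Rpl28, Rpl9, Rpl10l, Rpl32l and Rpl3l, fell below the filter and were not tested. Rpl10, whose protein is added late in the making of the large subunit, read between 2.19 and 4.15.

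Other genes of translation were compared by lists. In EGFP high cells of Atg7KO against WT, 0 of 29 initiation factors were called, with a median difference of -0.27 and 5 of 29 above 0. For scale, the median was -0.03 over all genes tested, with 46.2% above 0. Over the fifth of genes with the highest mean level it was -0.24, with 23.3% above 0. Eif5b, which joins the subunits at the start codon, differed by -0.66 (SE 0.17; limma, adjusted p = 0.144). The 8 ribosomal protein chaperones had a median of -0.35 with 0 above 0, and the 14 genes of mTORC1 and of the control of pyrimidine-tract messages had a median of -0.22 with 4 above 0. Larp1, which binds messages with a pyrimidine start, differed by -0.39 (SE 0.15; limma, adjusted p = 0.239). The 14 genes of ribosome turnover and quality control had a median of -0.24, and Vcp, an ATPase that extracts proteins for degradation, differed by -1.05 (SE 0.27; limma, adjusted p = 0.133). The 16 other messages with a pyrimidine start that were tested had a median of -0.05 with 7 above 0. None of these lists had a called gene in EGFP high or EGFP low cells. In EGFP low cells their medians were 0.14 for initiation factors, 0.23 for chaperones, 0.05 for mTORC1 and 0.00 for turnover. The other pyrimidine-start messages had 0.09 there, and the fifth of genes with the highest mean level had 0.06.

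Between the gates in Atg7KO mice, 1 of the 29 initiation factors rose (Eif4a2, by 0.64; SE 0.17; limma, adjusted p = 0.0309) and 3 fell. These were Eif1b by 0.74, Eif4g3 by 0.53 and Eif5b by 0.53. Over all genes, 4.48% were called higher and 6.44% lower in this comparison. Of the turnover genes, Ascc2 rose by 0.51, while Vcp fell by 0.97 and Pelo, which rescues stalled ribosomes, by 0.61. Among the 16 other messages with a pyrimidine start tested, 1 was called in each genotype, Nap1l1, a histone chaperone. It rose by 1.00 in EGFP high cells of WT mice (SE 0.14; limma, adjusted p = 0.00265) and by 0.63 in those of Atg7KO mice (SE 0.14; limma, adjusted p = 0.0114).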

How the data were processed

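The deposited table holds log2 values that the authors made with RMA in Affymetrix Expression Console, per the submitters' processing notes. RMA corrects background, normalizes by quantiles and summarises probes. Tool versions were not given in the sources used here. Per the labels' protocols, 1 ng of total RNA was amplified before hybridisation to Mouse Gene 2.0 ST arrays, and amplification and quantile normalization can narrow differences. Of 25429 probe sets, 24675 had 1 gene symbol and 754 had none and were left out. Arrays give no read depth, and their number limits the precision.

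Genes at or above the 40th percentile of their array on at least 3 of 14 arrays were tested, which left 15873. Means of the 4 groups were fitted with limma 3.58.1 in R 4.3.3 (10 residual degrees of freedom, prior 4.54), two-sided, with Benjamini-Hochberg adjustment over all 15873 genes. An adjusted p under 0.05 made a call. The fit was tested on simulated data. P-values rest on samples from individual mice. Gene roles came from general knowledge, and members and lists were chosen with earlier results of these data known.

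Members to name were listed by a rule. The list held the called ones, with the smallest p values added to reach 5 in each direction in each comparison. Rps12l1, Rpsa, Rpl5, Rps19, the stalk genes and the paralogue pairs were added to it. Not all listed members are described, and some are not described in every comparison that listed them. Left out are Rpl19, Rpl21, Rps20, Rps23rg1, Rps28, Rpl3, Rpl7, Rps4x and Rps4l. A few further members are named for position or spread, chosen after their values were seen (Rpl6, Rpl34, Rpl37, Rpl4, Rpl9, Rpl28 and Rpl32l). Gene names in context and marker lists are the called ones or those of smallest p. Alternatives covered the prior, array weights, normalization, the filter, the spread of an array and leaving out arrays. Promoters came from RefSeq.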

Additional observations from a re-analysis of the deposited data

Results flagged for a closer look

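Rps9 in Atg7KO-Low-387 read 10.70, while the other 3 Atg7KO EGFP low arrays read 10.96 to 10.97, so its gap to the nearest array exceeded Dixon's critical value for 4 samples. Of 74 groups of 4 arrays tested, this was the 1 such case, and chance gives about 1 in 20.

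Rpl36al differed in sign between the gates, with every Atg7KO array below the WT arrays in EGFP high cells and above them in EGFP low cells. The difference between the 2 knockout effects was -0.71 (SE 0.19; limma, adjusted p = 0.222), which did not pass the test, and the range over the alternatives was -0.83 to -0.42.

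Among 27 tested genes with -ps in the symbol, which the rule on members leaves out, 16 had all 3 Atg7KO EGFP high arrays above the 3 WT EGFP high arrays, against 10.2% of all genes.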

How the results depend on the processing

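Over 25 alternatives, 331 of 372 counts and medians stayed within the spread of the main value or 1.5 times the main count, and 41 moved. Of 4548 values of the 37 tested genes on the list of members to name, 42 of called genes fell short of the threshold and 47 others passed it. The sign turned in 217 values, in 72 of 185 pairs of gene and comparison, and 0 of the 217 were of a gene called under either setting. Among them, Rpl27 and Rpl29 in EGFP high cells turned from -0.41 and -0.43 to 0.12 and 0.26 with the array spread as covariate. The cause was not tested. Array weights called 3 members higher in Atg7KO EGFP high cells against 0 (Rpl22l1, Rps12l1 and Rps27l), and median centring gave a median difference there of -0.034, while it moved the median of all genes by -0.10 and left it at -0.14, so the members stayed above it. Between the gates in WT, called members numbered 2 higher with an intensity trend (3.13% against 1.32% of all genes). With array weights they numbered 3 higher (4.69% against 4.04%) and 1 lower (1.56% against 3.52%). Repeated quantile normalization gave 1 higher (1.56% against 1.20%). Between the gates in Atg7KO, members called higher numbered 5 with the trend, 0 with the groups alone, 6 with quantile normalization and 7 with cyclic loess. They numbered 0 with median centring, 4 with a filter at the 60th percentile and 4 with the replicate block. The count was 1 with the array spread as covariate and 1 without Atg7KO-High-356 and WT-Low-411. The matching shares of members and of all genes are given above with the comparison of the gates. Members called lower in that comparison numbered 1 with quantile normalization (1.56% against 5.36% of all genes) and 4 with median centring (6.25% against 7.88%). They numbered 1 without a filter (1.43% against 3.72%), 0 with the covariate (0% against 1.46%) and 1 without both arrays (1.56% against 3.97%). The interaction median was 0.027 with cyclic loess and -0.23 with median centring. Leaving out each array in turn, the median difference ran from 0.04 to 0.13 for Atg7KO against WT in EGFP high cells, with 0 called, and from 0.13 to 0.25 in EGFP low cells, with 0 called. It ran from 0.05 to 0.16 between the gates in WT (0 to 1 called higher, 0 to 1 lower) and from -0.06 to 0.11 in Atg7KO (0 to 5 higher, 0 to 4 lower). For the interaction it ran from -0.18 to -0.07, with 0 called. The replicate block used the number in the title, which recurs for 3 pairs of arrays, whose deviations correlated at 0.11, 0.18 and -0.04. The highest correlations with another number in the other gate were -0.03, -0.04 and 0.14, in the same order. In 2 of the 3 pairs the shared number thus gave the higher correlation, and in the remaining pair it did not. These values do not settle whether the numbers pair samples, and the main fit treated all arrays as independent. The block moved no other count of called members by over 1.5 times, but it raised called copies with -ps in the symbol between the gates in Atg7KO to 2, against 1.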

Other observations

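Copies of ribosomal protein genes with -ps in the symbol, RefSeq pseudogenes by name, read higher in Atg7KO than in WT EGFP high cells. This description was chosen after the values were seen. Of 27 tested copies, 26 had a difference above 0, against 46.2% of all genes. The median log2 difference of the copies was 0.56, against 0.07 for the 64 ribosomal protein genes. At an unadjusted p under 0.05 12 copies (44.4%) were higher and 0 were lower, against 5.99% and 9.88% of all genes. By limma 0 copies were called (smallest adjusted p = 0.131), against 0.0063% of all genes in each direction. With array weights 8 copies were called, in a setting that called 1.5% of all genes higher and 2.93% lower. Rps12-ps2 and Rpl17-ps3 each differed by 0.94, and Rps13-ps2 by 0.83. Without Atg7KO-High-356 the median was 0.36 with 24 of 27 above 0, and over all alternatives it ran from 0.36 to 0.68. In EGFP low cells the median was 0.17 with 21 of 27 above 0, against 50.3% of all genes. Between the gates in WT the median, EGFP high minus EGFP low, was -0.22 with 7 of 27 above 0, against 54.7% of all genes. In Atg7KO it was 0.14 with 17 of 27 above 0, against 52.1% of all genes. There Rpl9-ps6 was called higher, by 0.46 (SE 0.14; limma, adjusted p = 0.0470). That is 3.70% of the copies, against 4.48% of all genes. The copies share sequence with their parent genes and with each other, so they are not independent, and the array cannot assign their signal to 1 locus.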
